A study of Mus musculus with 4 samples.

Results

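The expression of 10 mouse genes was followed here in acute myeloid leukemia cells: the RUNX transcription factors Runx1, Runx2 and Runx3, their shared partner Cbfb, the ETO family corepressors Runx1t1, Cbfa2t2 and Cbfa2t3, and the E proteins Tcf3, Tcf4 and Tcf12. They were picked out by exact gene symbol, and all 10 were among the 24497 mouse gene entries of the deposited table. The comparison was between 2 libraries labelled Tet2 KO, from cells established with bone marrow hematopoietic stem cells of Tet2-/- mice that lack exons 8 to 10 of Tet2, and 2 WT libraries, from cells established in the same way from wild-type mice. Both groups carried NRAS and AML1-ETO9a, and both were cultured without further treatment in RPMI 1640 containing the cytokines SCF (50 ng/ml), IL-6 (10 ng/ml) and IL-3 (10 ng/ml) and the selection drugs puromycin (2 µg/ml) and G418 (1 mg/ml). Mouse strain and age, the form of NRAS, the vectors and the number of independent cell lines are not given in the sources used here. It is likewise not stated whether the 2 libraries of a group were separate cultures, so the error behind each p-value is the library-to-library spread and may be purely technical.

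RUNX proteins bind DNA through the Runt domain and bind it more tightly as heterodimers with CBFB, which does not contact DNA itself. AML1-ETO, the product of the t(8;21) translocation, joins the Runt domain of RUNX1 to the ETO protein RUNX1T1, which recruits NCoR, SMRT and histone deacetylases, and AML1-ETO9a is a C-terminally truncated form that causes leukemia in mice. E proteins are basic helix-loop-helix factors that bind E-box sequences as dimers, are held inactive by Id proteins, and bind ETO proteins directly, so the fusion, CBFB and the E proteins TCF3 and TCF12 can be found in shared complexes.

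Because the RUNX genes carry RUNX recognition letters in their own distal promoters, these letters are shown first. Of the 10 genes, 8 were matched to RefSeq promoter windows on GRCm38.p6, in 13 windows altogether. Each window runs from 250 bases before to 50 after an annotated start. No window was found for Runx1t1. For Tcf4 no window was used, so its promoter letters were not examined. The longest run shared by a window of each of Runx1, Runx2 and Runx3 was 18 bases long and holds ACCACA 2 times. It is printed in capitals within 30 bases read along each gene's strand, 5′ to 3′. The stretches are chr16:92826025-92826054 on the minus strand for Runx1, chr17:44814583-44814612 on the minus strand for Runx2 and chr4:135120503-135120532 on the plus strand for Runx3.
Runx1: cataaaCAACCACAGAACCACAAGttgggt
Runx2: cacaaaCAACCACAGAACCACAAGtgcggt
Runx3: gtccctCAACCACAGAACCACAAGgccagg
The run begins 26 bases after the start in Runx1, 21 bases after it in Runx2 and 136 bases before it in Runx3. Only 4 of 32851 windows hold it on either strand, those of Runx1, Runx2, Runx3 and Gm16225, a long noncoding RNA gene whose window overlaps that of Runx3. The letters TGTGGT or their complement ACCACA occur in 16.8% of all windows and 2 or more times in 1.81%. They occur 2 times in the Runx1 and Runx3 windows above, 3 times in that of Runx2, and in no window of the other 5 matched genes or in the second windows of Runx1 and Runx3.

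Across the 4 libraries, 11630 to 11731 genes reached 1 TPM (a length-corrected transcript abundance scaled to the same total in every library), and read depth is unknown. A gene was kept if 2 or more libraries reached 1 TPM, which left 11837 genes, among them all 10 RUNX, ETO and E-protein genes. The Tet2 transcript had 53.5 and 52.8 TPM in the KO-labelled libraries and 35.0 and 40.0 TPM in WT (log2 change 0.50, SE 0.067, adjusted p = 0.0054). This call was lost without either KO-labelled library. A value for the whole gene cannot show a deletion of exons 8 to 10, so the groups are named by their labels throughout. In all, 3606 kept genes passed an adjusted p of 0.05, 2237 higher and 1369 lower in the KO-labelled libraries. The share of higher calls among them was 62.0% as deposited, 48.7% with trimmed-mean scaling and 29.9% with spike-in scaling. The median log2 change of all kept genes was 0.04 as deposited and -0.07 with spike-in scaling, a shift of -0.109. The spike-in factors were 1.044 and 1.035 in the KO-labelled libraries and 0.910 and 1.01 in WT replicates 1 and 2. The WT factors thus differed from each other by more than WT replicate 2 differed from either KO-labelled library. Spike-in scaling therefore leans on WT replicate 1. Granulocyte maturation markers moved most broadly: 16 of 16 fell, and together they held 24030 and 24340 TPM in the KO-labelled libraries and 47790 and 47140 TPM in WT. In bulk RNA, fewer cells of a type and less RNA per cell cannot be told apart. Among markers that define lymphoid and bone-forming cells, Cd3e, Cd8b1, Ncr1, Ms4a1, Rag1, Bglap and Ibsp were listed at 0 in all 4 libraries. Other genes of the same marker lists were kept. Of those, Thy1, Nkg7, Cd79b and Pdgfrb were called higher in the KO-labelled libraries, and Lck and Spp1 did not pass.

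In the KO-labelled libraries 4 of the 10 genes rose (Cbfa2t3, Tcf4, Runx2 and Tcf12), 1 fell (Runx1t1) and 5 did not pass. Over all kept genes 30.5% were called, 18.9% higher and 11.6% lower. The median log2 change was 0.181 over the 10 genes, against 0.041 over all kept genes, and 9 of the 10 differences were positive, against 6960 of all 11837. With spike-in scaling 7 of the 10 were positive. Groups did not overlap for 8 of the 10, with 7 higher and 1 lower in the KO-labelled libraries. Over all kept genes the groups did not overlap for 68.6%, with 42.2% higher and 26.5% lower.

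**Figure D1:**
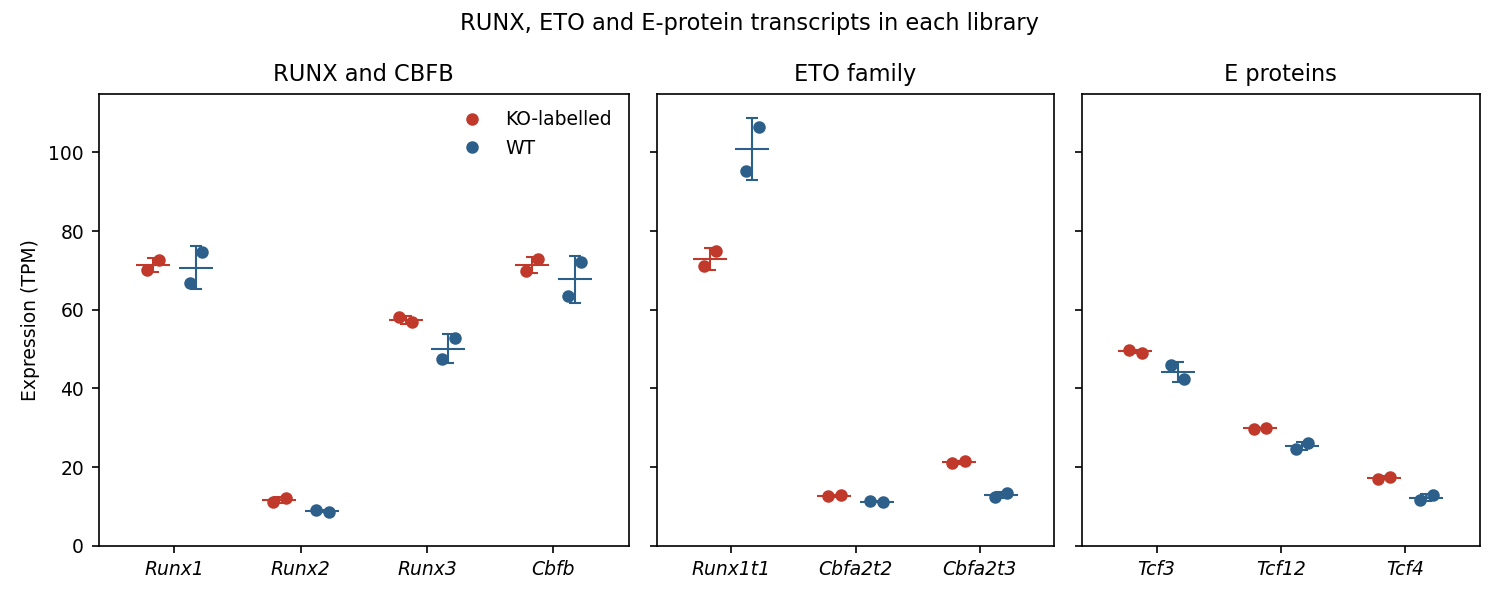
Expression in TPM (linear axis from 0) of the 10 genes in each library, KO-labelled to the left of WT for each gene; points are libraries, horizontal bars the mean and error bars the SD of 2 libraries. Runx1t1 lies at 71.0 and 74.8 TPM in the KO-labelled libraries, below the 95.2 and 106 TPM of WT, while Cbfa2t3, Tcf4, Runx2 and Tcf12 lie above WT.

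Among the RUNX factors, Runx1, required for the emergence of definitive blood stem cells, was close to equal in both groups. It had 70.1 and 72.5 TPM in the KO-labelled libraries, against 66.8 and 74.6 TPM in WT. The 2 KO-labelled values lay between the 2 WT values, so the groups overlapped. The log2 change was 0.01 (SE 0.060, adjusted p = 0.89), smaller in size than that of nearly all kept genes (5.31% had a smaller one). Its sign is not determined by these data, since it turned negative with every other scaling tried and without KO-labelled replicate 2 or WT replicate 1. In GRCm38 the gene occupies 92601466 to 92826149 of chromosome 16, minus strand, and shares 106 exonic bases with the antisense gene Gm26626.

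Runx3, which directs CD8 T-cell, natural killer and some myeloid programmes, had 58.2 and 56.8 TPM in the KO-labelled libraries and 47.5 and 52.8 TPM in WT. Both KO-labelled values exceeded both WT values, but the log2 change of 0.20 (SE 0.058, adjusted p = 0.055) did not pass. Runx3 was called under only 4 of the 17 other settings. Among them were robust variances (adjusted p = 0.036), a 5 TPM filter (adjusted p = 0.043) and the replicate numbers crossed as a block (adjusted p = 0.034). The other was leaving out WT replicate 2, the higher of the WT libraries (0.27). Over the libraries left out the log2 change ran from 0.12 to 0.27. With spike-in scaling it was 0.08 (adjusted p = 0.45). Runx3 occupies 135120652 to 135177990 of chromosome 4, plus strand. Runx2, the osteoblast master regulator that is also expressed in myeloid progenitors and plasmacytoid dendritic cells, was the least abundant of the 10 genes in both groups. Its level was 11.0 and 12.2 TPM in the KO-labelled libraries and 8.97 and 8.61 TPM in WT, without overlap. Runx2 rose by 0.36 on the log2 scale (SE 0.072, adjusted p = 0.017), although this call was lost on leaving out any 1 of the 4 libraries (adjusted p = 0.057 to 0.10), with spike-in scaling (0.26, adjusted p = 0.11) and when all genes were tested without a filter (adjusted p = 0.051). An antisense gene, Runx2os1, shares 519 exonic bases, 5.87% of those of Runx2, and the strand setting of the counting is not given in the sources used here. Of 10 osteoblast and stromal markers only Spp1 and Pdgfrb were kept. Pdgfrb, a mesenchymal receptor, was called higher, at 8.65 and 8.72 TPM in the KO-labelled libraries, against 5.92 and 5.93 TPM in WT. Spp1, also a myeloid product, had 4368 and 4255 TPM in the KO-labelled libraries and 4088 and 4089 TPM in WT, while Sp7, an osteoblast factor, was at or below 0.04 TPM. The part of stromal cells in the Runx2 difference was not tested. Runx2 occupies 44495987 to 44814797 of chromosome 17, minus strand.

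Cbfb, the common partner of the RUNX factors, had 69.9 and 72.8 TPM in the KO-labelled libraries, against 63.6 and 72.0 TPM in WT. The groups overlapped and the log2 change of 0.07 (SE 0.066, adjusted p = 0.43) did not pass, and it turned negative with spike-in scaling and without WT replicate 1. Summed over Runx1, Runx2 and Runx3, RUNX transcripts came to 139 and 141 TPM in the KO-labelled libraries and to 123 and 136 TPM in WT. Runx1 made up 50.3% and 51.3% of this sum in the KO-labelled libraries and 54.2% and 54.9% in WT, a difference of -3.75 percentage points, and the shares of Runx2 and Runx3 were higher in both KO-labelled libraries than in either WT library. The ratio of Cbfb to this sum was 0.5015 and 0.5147 in the KO-labelled libraries and 0.5154 and 0.5296 in WT. The groups did not overlap but nearly met, and about 1 TPM of Cbfb was measured for every 2 TPM of RUNX transcripts in both groups. Cbfb occupies 105170674 to 105217989 of chromosome 8, plus strand.

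In the ETO family Cbfa2t3 rose, with the largest change of the 10 genes, Runx1t1 fell and Cbfa2t2 was not called. Runx1t1, the ETO gene itself, had 71.0 and 74.8 TPM in the KO-labelled libraries and 95.2 and 106 TPM in WT, with no overlap. It averaged 72.9 ± 2.69 TPM in the KO-labelled group and 100.9 ± 7.94 TPM in WT (SD, n = 2 each), and fell by 0.46 on the log2 scale (SE 0.062, adjusted p = 0.0054). The call was lost without KO-labelled replicate 1 (log2 change -0.42, adjusted p = 0.064), and the log2 change stayed between -0.58 and -0.38 over all 17 other settings. The table has 0 entries named for AML1-ETO9a, and the introduced fusion carries RUNX1 and RUNX1T1 sequence. Its reads may therefore be in the values of Runx1 and Runx1t1, and the part of either value that comes from the fusion was not tested. Runx1t1 lies on chromosome 4 from 13743436 to 13893649, plus strand.

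Cbfa2t3, also known as ETO2 or MTG16, a corepressor of the TAL1 complex in progenitor, erythroid and megakaryocytic cells, changed most. It had 21.0 and 21.4 TPM in the KO-labelled libraries, against 12.3 and 13.4 TPM in WT. The KO-labelled mean was 1.65 times that of WT, and the gap between groups was many times the spread within either. Its log2 change of 0.68 (SE 0.059, adjusted p = 0.0015) was larger in size than that of 94.9% of kept genes. Of the 10 genes, only Cbfa2t3 was called under all 17 other settings, with changes from 0.56 to 0.74 and a highest adjusted p of 0.030. The antisense gene Gm10612 shares 295 exonic bases with it, 3.52% of its exonic bases. Cbfa2t2 (MTGR1), the remaining family member, had 12.5 and 12.9 TPM in the KO-labelled libraries and 11.3 and 11.1 TPM in WT. These did not overlap, yet the log2 change of 0.17 (SE 0.056, adjusted p = 0.073) did not pass. Cbfa2t3 lies on chromosome 8 from 122625141 to 122699109, minus strand, and Cbfa2t2 on chromosome 2 from 154436481 to 154539356, plus strand.

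As Cbfa2t3 had the largest change, the 250 bases before its upstream RefSeq start (chr8:122699110-122699359, minus strand, GRCm38.p6) are shown 5′ to 3′, with every E-box (CANNTG, the letters that E proteins bind) in capitals.
Cbfa2t3: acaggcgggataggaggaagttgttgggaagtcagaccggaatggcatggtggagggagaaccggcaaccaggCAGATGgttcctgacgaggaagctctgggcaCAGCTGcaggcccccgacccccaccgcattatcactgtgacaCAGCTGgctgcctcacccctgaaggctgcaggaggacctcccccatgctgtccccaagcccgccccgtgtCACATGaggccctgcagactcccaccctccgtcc
It holds CANNTG 4 times, of which 2 are CAGCTG, and neither TGTGGT nor ACCACA. Among all 32851 windows 72.3% hold CANNTG at least once and 1.90% hold CAGCTG 2 or more times. The second Cbfa2t3 window, at a downstream start, holds CANNTG 1 time. A match of letters is a description of the sequence and not a measured binding site.

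Relative to the other ETO genes, Runx1t1 made up less of the family in the KO-labelled libraries. Its share of the summed ETO-family TPM was 67.9% and 68.5% there and 80.1% and 81.3% in WT, a difference of -12.5 percentage points. This share needs no scaling between libraries, and the difference stayed between -13.1 and -11.9 points on leaving out any library. The Cbfa2t3 share was 20.1% and 19.6% in the KO-labelled libraries, against 10.4% and 10.2% in WT. The ratio of Runx1t1 to Cbfa2t3 in TPM was 3.39 and 3.49 in the KO-labelled libraries and 7.74 and 7.98 in WT. Similarly, the ratio of Runx1t1 to Runx1 was 1.01 and 1.03 in the KO-labelled libraries and 1.42 and 1.43 in WT. The 2 libraries of a group differed by 0.02 or less in this ratio, whereas the groups differed by 0.40. Reads of the introduced fusion may be in the Runx1t1 and Runx1 values, and so in these shares and ratios. Their part in the group differences was not tested. With 2 libraries against 2, an exact permutation test of any such ratio cannot go below p = 0.33.

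**Figure D2:**
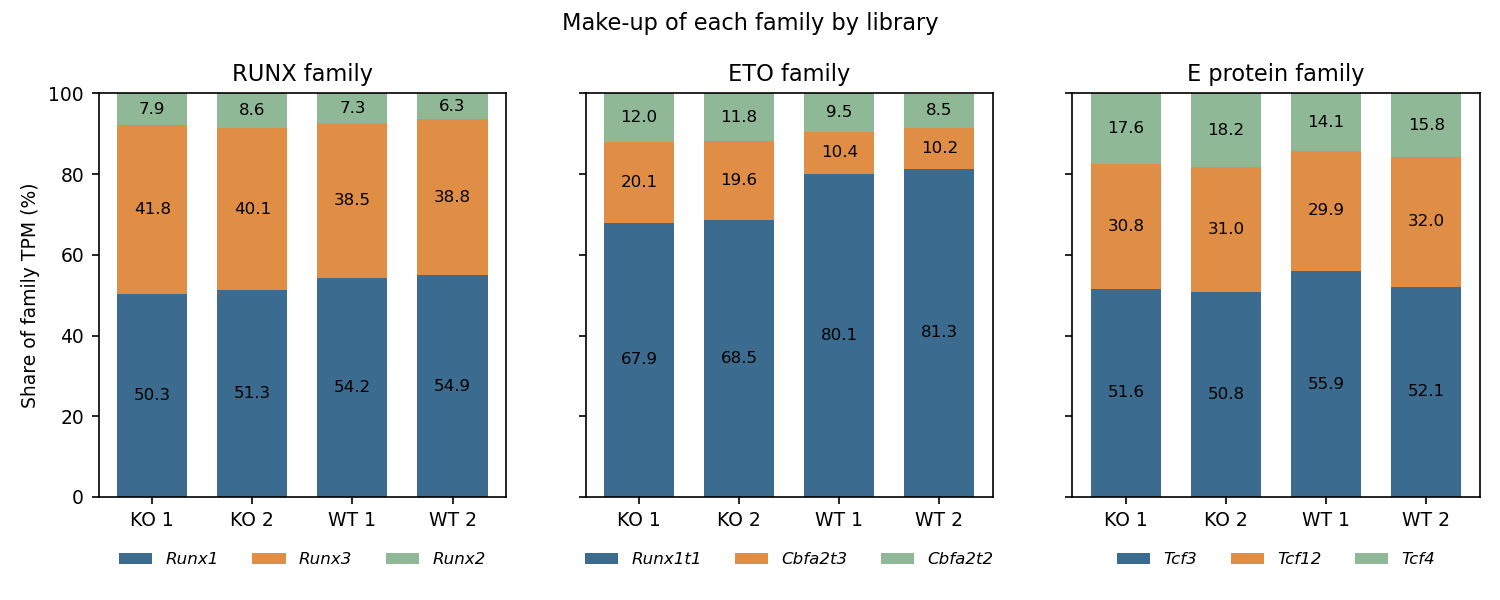
Share in percent of the summed TPM of the RUNX, ETO and E-protein families held by each gene, with 1 stacked bar per library and KO-labelled libraries to the left of WT. Runx1t1 holds 67.9% and 68.5% of its family in the KO-labelled libraries and 80.1% and 81.3% in WT, while the RUNX and E-protein families differ less. Reads of the introduced fusion may be in the values of Runx1 and Runx1t1.

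In TPM as deposited, all 3 E-protein genes were higher in both KO-labelled libraries than in either WT library, as were 42.2% of all kept genes. Of the 3, 2 passed the test. Tcf4 (E2-2), the E protein that specifies plasmacytoid dendritic cells, had 16.96 and 17.56 TPM in the KO-labelled libraries, against 11.61 and 12.86 TPM in WT. It rose by 0.47 on the log2 scale (SE 0.067, adjusted p = 0.0064), a call lost without KO-labelled replicate 1 (adjusted p = 0.057) or 2 (adjusted p = 0.066). Tcf12 (HEB), a direct partner of AML1-ETO, had 29.71 and 29.96 TPM in the KO-labelled libraries and 24.55 and 26.06 TPM in WT. Its rise of 0.23 (SE 0.049, adjusted p = 0.021) was not called without either KO-labelled library (adjusted p = 0.12 and 0.13), without WT replicate 1 (adjusted p = 0.072) or after spike-in scaling (0.12, adjusted p = 0.30). Tcf3 (E2A), the most abundant of the 3, had 49.7 and 49.1 TPM in the KO-labelled libraries, against 45.9 and 42.4 TPM in WT. Its log2 change of 0.16 (SE 0.050, adjusted p = 0.063) did not pass. Tcf3 was called under only 2 of the 17 other settings. These were robust variances (adjusted p = 0.049) and leaving out WT replicate 1 (0.22). Trimmed-mean scaling lowered its log2 change to 0.12 (adjusted p = 0.17), and scaling to the spike-ins lowered it to 0.046 (adjusted p = 0.77).

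Together the E-protein genes came to 96.4 and 96.6 TPM in the KO-labelled libraries and to 82.0 and 81.3 TPM in WT. The 2 libraries of a group thus differed by less than 1 TPM in this sum. In WT, Tcf3 was lower but Tcf4 and Tcf12 were higher in replicate 2 than in replicate 1, and these differences largely cancelled. Tcf4 made up 17.6% and 18.2% of this sum in the KO-labelled libraries and 14.1% and 15.8% in WT, and Tcf3 51.6% and 50.8%, against 55.9% and 52.1%. The share of Tcf12 overlapped between groups. Beside Tcf4, markers of plasmacytoid dendritic cells were examined. Of 10, only Bst2, Cox6a2 and Irf8 were kept and all 3 were called higher, though only 1 of them with spike-in scaling. The list summed to 148 and 151 TPM in the KO-labelled libraries and 121 and 121 TPM in WT. Most of this was Bst2, at 110.7 and 110.7 TPM in the KO-labelled libraries and 93.8 and 93.2 TPM in WT. The more restricted markers Siglech, Ccr9 and Spib stayed at or below 0.19 TPM, and Cd209d and Ly6d were listed at 0 in all 4 libraries. Of 11 B-cell markers, 10 were in the table and only Cd79b was kept (4.37 and 4.58 TPM in the KO-labelled libraries, 2.60 and 2.49 TPM in WT). Tcf4 lies on chromosome 18, Tcf12 on chromosome 9 from 71842688 to 72111871, minus strand, and Tcf3 on chromosome 10 from 80409514 to 80433647, minus strand.

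**Figure D3:**
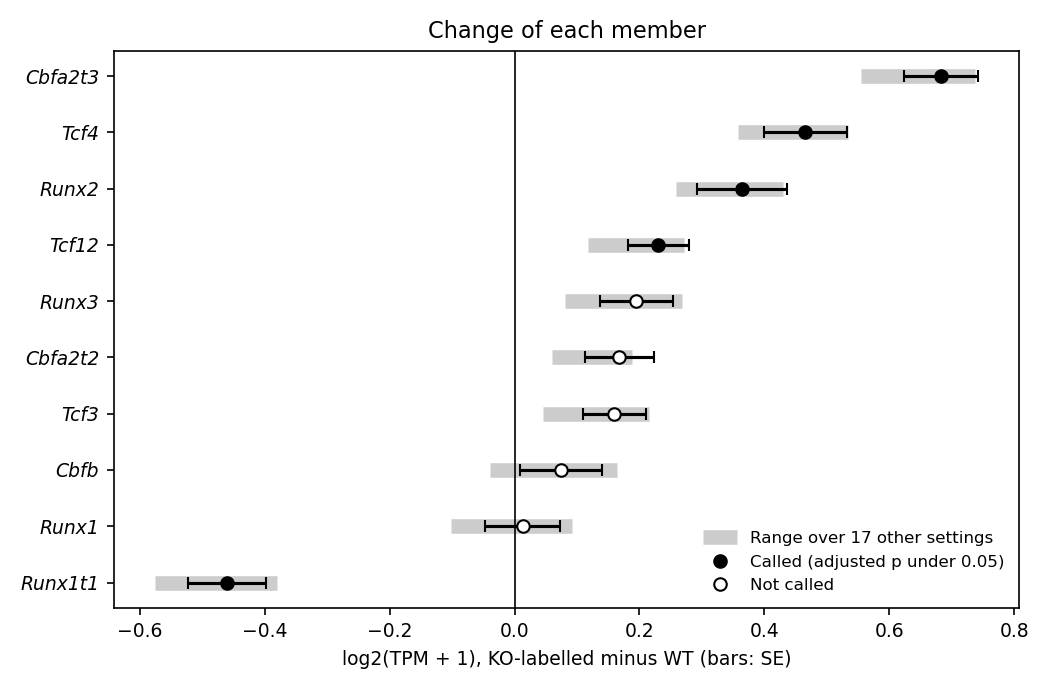
Change of each gene on the log2(TPM + 1) scale, KO-labelled minus WT, with points for the estimate from all 4 libraries and error bars for its SE; filled points passed an adjusted p of 0.05 and grey bars span the estimates under 17 other settings. Cbfa2t3 at 0.68 and Runx1t1 at -0.46 lie farthest from 0 on either side, and the grey bars of Runx1 and Cbfb cross 0.

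By level, Runx1t1, Cbfb and Runx1 stood highest in the KO-labelled libraries with overlapping ranges, at means of 72.9, 71.3 and 71.3 TPM. In WT Runx1t1 stood above Runx1 and Cbfb, whose ranges overlapped each other. Below them the order was Runx3, Tcf3, Tcf12, Cbfa2t3, Tcf4, Cbfa2t2 and Runx2 in both groups. In the KO-labelled libraries no neighbours below Runx1 overlapped, whereas in WT Cbfa2t3 and Tcf4 did (12.8 and 12.2 TPM on average). Runx1t1, Runx1 and Cbfb were each more abundant on average than over 81% of kept genes, and Runx2 than 30.4%.

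The partners and inhibitors of E proteins were mostly higher in the KO-labelled libraries. Of 14 listed genes 10 were kept, of which 7 rose, 0 fell and 3 did not pass. Among all kept genes 18.9% rose and 11.6% fell. The median log2 change of the list was 0.22, against 0.04 over all kept genes. Under spike-in scaling 2 rose and none fell, while without KO-labelled replicate 1 the counts were again 2 and 0. Tal1, the stem cell and erythroid partner of E proteins, had 46.1 and 44.7 TPM in the KO-labelled libraries and 30.8 and 32.6 TPM in WT. It rose by 0.51 (SE 0.047, adjusted p = 0.0018) and was called under every other setting. The bridging proteins of the same complex also rose, Lmo2 by 0.34, Lmo4 by 0.24 and Ldb1 by 0.20, as did Ssbp2, which stabilises LDB1, by 0.68 (7.70 and 7.62 TPM in the KO-labelled libraries, 4.09 and 4.72 TPM in WT). With spike-in scaling Lmo2, Lmo4 and Ldb1 did not pass, and neither these genes nor Ssbp2 passed without KO-labelled replicate 1. Lmo4 and Ldb1 also did not pass without KO-labelled replicate 2, nor did Lmo4 without WT replicate 1. Lyl1, a TAL1 relative, was at 180 and 190 TPM in the KO-labelled libraries, against 182 and 183 TPM in WT (log2 change 0.02, adjusted p = 0.73).

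Id proteins, which lack a DNA-binding basic region and sequester E proteins, were represented mainly by Id1 and Id2. Id1 had 213 and 211 TPM in the KO-labelled libraries and 170 and 162 TPM in WT, a rise of 0.36 (SE 0.036, adjusted p = 0.0024), and Id2 rose by 0.20 (adjusted p = 0.039). Neither passed with spike-in scaling, and the Id2 call was also lost under 9 other settings, among them leaving out either KO-labelled library or WT replicate 1. Id3 had 1.84 and 1.63 TPM in the KO-labelled libraries and 2.09 and 2.90 TPM in WT (log2 change -0.35, adjusted p = 0.14), and Id4 was listed at 0 in all 4 libraries. The ratio of summed E-protein to summed Id transcripts was 0.225 and 0.230 in the KO-labelled libraries and 0.238 and 0.229 in WT. These values overlapped, although both sums were higher in the KO-labelled libraries.

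Corepressors and other regulators that act with ETO or with the fusion showed called changes of 0.26 or less in size. Of 17 listed genes, all kept, 6 rose, 2 fell and 9 did not pass, where 30.5% of all kept genes were called. The median log2 change was 0.12, against 0.04 over all kept genes. Ncor1, which ETO recruits, had 99.5 and 98.5 TPM in the KO-labelled libraries and 80.0 and 85.6 TPM in WT (log2 change 0.25, adjusted p = 0.011). Tbl1x, a subunit of the NCoR complex, rose by 0.25, and the demethylase Kdm1a and its partner Rcor1 each rose by 0.21. Hdac3, the deacetylase of that complex, fell by 0.17 (adjusted p = 0.036), and Gps2, another of its subunits, fell by 0.26 (adjusted p = 0.019). Under spike-in scaling no gene rose and 2 fell, while without either KO-labelled library 0 were called in each direction.

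Factors that act beside RUNX1 on blood cell promoters went both ways. Of 14 listed genes 13 were kept, of which 3 rose, 4 fell and 6 did not pass. Among all kept genes 18.9% rose and 11.6% fell. The median log2 change of the list was 0.05, against 0.04 over all kept genes. Spi1 (PU.1), the myeloid and lymphoid ETS factor, had 200 and 196 TPM in the KO-labelled libraries and 235 and 240 TPM in WT, and fell by 0.26 (SE 0.032, adjusted p = 0.0041). Cebpe, which drives late granulocyte maturation, fell by 0.59 and Gfi1, a repressor needed for neutrophils, by 0.44. Gata1, the erythroid, megakaryocyte and eosinophil factor, was low, at 1.24 and 1.5 TPM in the KO-labelled libraries and 3.01 and 2.97 TPM in WT, and fell by 0.75. Gfi1b, the erythroid and megakaryocytic relative of Gfi1, rose by 0.66, Meis1, a stem cell homeobox factor, by 0.74 and Cebpa, the granulocyte-monocyte factor, by 0.15 (adjusted p = 0.033). The Cebpa call was lost with trimmed-mean and spike-in scaling and without any 1 of the 4 libraries. Without KO-labelled replicate 1, 1 gene rose and 2 fell, as the calls of Spi1, Gata1 and Meis1 were lost too, and without KO-labelled replicate 2, 1 rose and 3 fell, as those of Spi1 and Gfi1b were lost. Granulocyte maturation markers, Cebpe among them, fell in the same libraries as given above, and their part in these differences was not tested.

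Known RUNX1 target genes of blood cells also differed gene by gene. Of 17 listed genes 11 were kept, of which 6 rose, 1 fell and 4 did not pass. Among all kept genes 18.9% rose and 11.6% fell. The median log2 change of the list was 0.17, against 0.04 over all kept genes. Under spike-in scaling 3 of the listed genes rose and 1 fell. Mpo and Elane, which both encode primary granule proteins, went in opposite directions. Mpo, the myeloperoxidase, had 990 and 1037 TPM in the KO-labelled libraries, against 731 and 758 TPM in WT (log2 change 0.44, SE 0.039, adjusted p = 0.0015). Elane, neutrophil elastase, had 109 and 117 TPM in the KO-labelled libraries, against 273 and 276 TPM in WT (log2 change -1.28, SE 0.045, adjusted p = 1.15e-04). Itga2b, the platelet integrin CD41 that also marks early progenitors, rose by 0.97 (41.1 and 40.4 TPM in the KO-labelled libraries, 20.01 and 20.56 TPM in WT), and Gzmb, granzyme B, by 1.24 (20.9 and 21.4 TPM, against 8.17 and 8.52 TPM in WT). Itgal, the LFA-1 alpha subunit, rose by 0.31 and the cell cycle inhibitor Cdkn1a by 0.17, though neither passed with spike-in scaling and Cdkn1a did not without either KO-labelled library. Csf1r, the macrophage colony-stimulating factor receptor, was named after its value was seen, a log2 change of -0.08 (adjusted p = 0.20). Il3 was listed at 0 in all 4 libraries.

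Marker values beside these targets were as follows, where 18.9% of all kept genes rose and 11.6% fell. Of 13 T-cell and natural killer markers, 12 were in the table and only Thy1, Nkg7 and Lck were kept, with a summed level of 205 and 201 TPM in the KO-labelled libraries and 121 and 121 TPM in WT. Cd3e, Cd8b1 and Ncr1, which define those cells, were listed at 0. Of 13 erythroid and megakaryocyte markers 6 were kept; 2 rose and 1 fell, and the list summed to 400 and 411 TPM in the KO-labelled libraries and to 308 and 298 TPM in WT. Itga2b itself is on that list. Of 11 mast cell and basophil markers 9 were kept; 1 rose and 6 fell, with a median log2 change of -1.08. Their sum, 2180 and 2118 TPM in the KO-labelled libraries and 2036 and 2116 TPM in WT, was mostly Cpa3, a mast cell protease and the gene that rose (1667 and 1606 TPM in the KO-labelled libraries, 1302 and 1366 TPM in WT). Of 10 monocyte and macrophage markers, all kept, 3 rose and 4 fell, and the sum was 2626 and 2604 TPM in the KO-labelled libraries and 3107 and 3232 TPM in WT. The part of these cell types in the changes of Gzmb, Itga2b, Tal1 and Spi1 was not tested.

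Genes reported in human cells as repressed or activated by AML1-ETO were called in both directions. Of 13 listed genes 8 were kept; 1 rose, 1 fell and 6 did not pass, a share of calls near the 30.5% of all kept genes, with a median log2 change of -0.03. Nf1, a RAS GTPase-activating protein, had 15.4 and 15.7 TPM in the KO-labelled libraries and 10.5 and 11.2 TPM in WT, and rose by 0.49 (SE 0.059, adjusted p = 0.0039). Jup, plakoglobin, had 9.0 and 9.98 TPM in the KO-labelled libraries and 17.6 and 19.7 TPM in WT, and fell by 0.90 (SE 0.081, adjusted p = 0.0016). Both calls held under all 17 other settings. Ogg1, Lat2, Ubash3b and Cav1 had log2 changes of 0.18, 0.09, -0.09 and -0.39 and did not pass. Pou4f1, a frequent marker of t(8;21) leukemia in patients, stayed at or below 0.10 TPM, and Trh was listed at 0 in all 4 libraries.

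**Figure D4:**
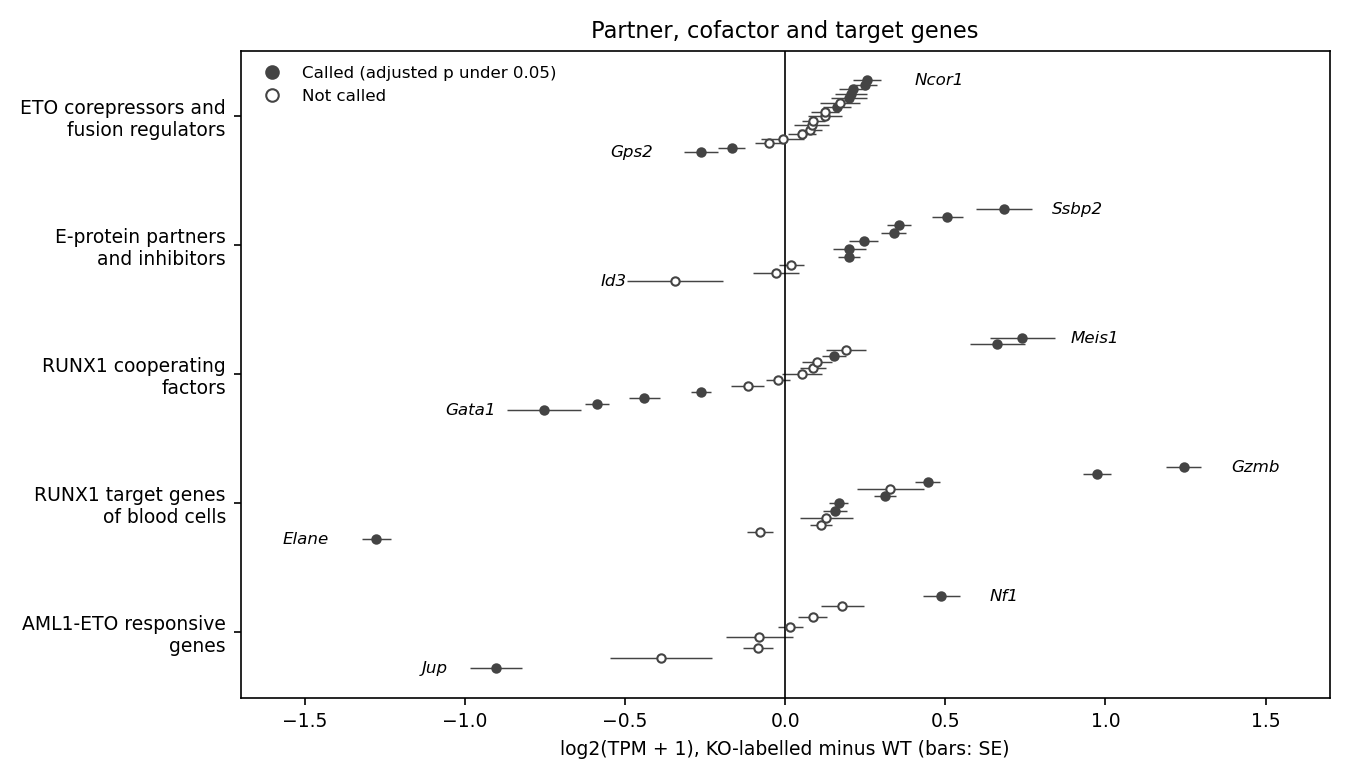
Change of each kept gene in 5 lists of partners, cofactors and targets on the log2(TPM + 1) scale, KO-labelled minus WT, with error bars for the SE and filled points for an adjusted p under 0.05; the lowest and highest gene of each list are named. The corepressor list stays within 0.26 of 0 among called genes, whereas the RUNX1 targets run from -1.28 for Elane to 1.24 for Gzmb.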

How the data were processed

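RNA was extracted with QIAzol and sequenced from KAPA stranded mRNA libraries, per the labels. STAR, RSEM and the mm10 build are named in the submitters' processing notes, while the annotation, the strand setting and tool versions are not given in the sources used here. Values were deposited as TPM by the authors, a unit read from the table: each of its 4 columns sums to 1000000 over 24589 entries, 92 of them ERCC spike-ins, which were left out of the tests. TPM keep no depth, so no counting interval is given. The 11837 genes that reached 1 TPM in 2 or more libraries were compared on log2(TPM + 1), a scale that understates changes of low genes, with limma 3.58.1 in R 4.3.3: variance trend, 4 libraries, no replicate block, two-sided p adjusted by Benjamini-Hochberg over all kept genes, called under 0.05. All adjusted p come from limma. Residual degrees of freedom were 2 and prior ones 3.51. "Rose" and "fell" mean called. The fit was tested on simulated data in which far fewer genes changed than were called here. That test does not cover changes as broad as these.

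The 10 genes, the pathway and marker lists and the tests were chosen with earlier results of these data known. Named were the 10 genes, Tet2, up to 6 genes per pathway list with the smallest p, and 8 fixed partners (Spi1, Cebpa, Lyl1, Lmo2, Ldb1, Id1, Id2 and Id3); other list genes were named for their low values or roles after their values were seen. Coordinates and exon overlaps came from GENCODE M21 (GRCm38), sequences from RefSeq (GRCm38.p6).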

Additional observations from a re-analysis of the deposited data

How the results depend on the processing

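Of the 10 genes, 4 were called higher and 1 lower with all libraries, and 3606 of all kept genes were called. With spike-in scaling 2 of the 10 were called higher (Cbfa2t3 and Tcf4) and 2108 of all genes, and at an adjusted p under 0.01 again 2 of the 10 and 1505 of all genes. On leaving out 1 library at a time, 1 to 4 of the 10 were called higher, 0 or 1 lower, and 1015 to 2905 of all genes. The 0.01 cutoff was applied to the same fit and can only remove calls. Each fit with a library left out holds fewer samples. The cause of the moves with spike-in scaling or with a library left out was not tested. Differences in family share kept their direction, at -4.23 to -3.28 percentage points for Runx1, -13.1 to -11.9 for Runx1t1 and 2.07 (without WT replicate 1) to 3.74 (without WT replicate 2) for Tcf4. The sign of Runx1 turned with quantile normalization (-0.012), trimmed-mean scaling (-0.031), spike-in scaling (-0.10), rescaling without spike-ins, Rn45s and granulocyte markers (-0.0088), and without KO-labelled replicate 2 or WT replicate 1 (-0.065 to 0.092 over the libraries left out). The sign of Cbfb turned with spike-in scaling (-0.040) and without WT replicate 1 (-0.014 to 0.16 over the libraries left out). Neither gene was called in any setting. With the replicate number as a block, 3071 of all genes and 4 and 1 of the 10 were called. Deviations of same-numbered libraries had a correlation of -0.114 across genes. The crossed pairing was added after seeing the data and gave 3463 calls, with 5 of the 10 higher (Runx3 added) and 1 lower. Pseudocounts of 0.1 and 5, testing all genes or those at 5 TPM, and limma with robust variances or no trend were also tried. Read depth is unknown, so its limit on low genes such as Runx2 could not be set.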
